A study of Homo sapiens with 15 samples.

Results

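The comparison set 3 libraries from mice given bortezomib alone against 3 libraries from mice given PBS, which is 6 of the 15 libraries of the series. MM.1S is a human multiple myeloma cell line, here carrying green fluorescent protein and luciferase, that was injected into the veins of SCID-beige mice, a strain without functional T, B and natural killer cells, and grew in their bone marrow. Bortezomib was injected into the abdomen once a week at 0.25 mg/kg. The control libraries are labelled PBS, whereas the treatment protocol describes weekly saline into the vein, so the vehicle and its route differed from those of the drug. Groups of 5 mice were treated, and 3 tumours of each group were sequenced. Marrow was flushed from the femurs when an animal reached limb paralysis or severe toxicity, and total RNA depleted of ribosomal RNA was sequenced from the frozen pellets, which also held mouse cells. Neither the time between the last dose and collection nor the treatment of mouse reads is stated in the sources used here. Where bortezomib was given together with elesclomol, a copper ionophore, the comparison with elesclomol alone (3 libraries each, labelled combination and elesclomol here) was set beside the main one. Elesclomol was injected under the skin at 25 mg/kg, and the combination received both drugs in the same way. The fifth group, in which elesclomol was added later, entered only the shared fit. The libraries of a group are stated to be separate tumours, with no animal named for each, so the p-values measure the spread between these libraries, part of which may be technical.

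Bortezomib binds the chymotrypsin-like subunit of the 20S proteasome core, PSMB5, and slows the breakdown of ubiquitin-tagged proteins. Plasma cells and myeloma cells secrete large amounts of immunoglobulin and lean on the unfolded protein response: the sensor IRE1 (gene ERN1) splices XBP1 mRNA, ATF6 is cut in the Golgi, PERK (EIF2AK3) leads to ATF4, and the targets are chaperones and the machinery that pulls misfolded proteins out of the endoplasmic reticulum (ER) to the proteasome. When the proteasome is blocked, the factor NRF1 (NFE2L1) is known to raise proteasome subunit genes, heat shock factor is known to raise cytosolic chaperones, and the BH3-only proteins NOXA (PMAIP1) and BIM (BCL2L11) are known to take part in cell death.

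ATF6 and XBP1 act through a DNA element, the ER stress response element (ERSE), which reads CCAAT, then 9 bases of any kind, then CCACG, and through a shorter form, ERSE-II, which reads ATTGG, then 1 base of any kind, then CCACG. Both were searched on both strands in the 250 bases before the start of each gene in the RefSeq promoter table (GRCh38.p14). Of the 26 genes of the unfolded protein response list 24 had an entry, and the longer element was present in 6 of these (25.0%) and in 0.135% of the 9614 promoters of tested genes. The 7 stretches below are shown because they carry an element in members of the unfolded protein response and ER-associated degradation lists that are described below, 5 of them in members that lay above 0, and HSP90B1 close to 0 and ERO1B below it. They are written 5′ to 3′ on the strand of the gene, with the fixed letters of the element in capitals. A match describes letters in this window and nothing about binding.
HSPA5, chr9:125241381-125241419, minus strand, ERSE: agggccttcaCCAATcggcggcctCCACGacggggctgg
HERPUD1, chr16:56932015-56932045, plus strand, ERSE-II: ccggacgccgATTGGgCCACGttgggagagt
CALR, chr19:12938374-12938412, plus strand, ERSE on the other strand: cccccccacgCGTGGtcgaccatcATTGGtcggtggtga
CRELD2, chr22:49918544-49918582, plus strand, ERSE on the other strand: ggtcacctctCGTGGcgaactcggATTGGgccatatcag
SDF2L1, chr22:21642104-21642134, plus strand, ERSE-II on the other strand: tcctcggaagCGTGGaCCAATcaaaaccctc
HSP90B1, chr12:103930206-103930349, plus strand, ERSE once on each strand: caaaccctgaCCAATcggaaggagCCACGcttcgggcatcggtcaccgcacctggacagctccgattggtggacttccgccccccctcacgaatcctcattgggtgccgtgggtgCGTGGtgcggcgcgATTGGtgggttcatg
ERO1B, chr1:236282173-236282208, minus strand, ERSE on the other strand: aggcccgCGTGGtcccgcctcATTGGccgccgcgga

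The libraries held 4500326 to 6287708 counts with PBS and 5458022 to 8449749 with bortezomib, and 35.0% to 39.1% of them fell on genes of mitochondrial DNA. The 3 PBS libraries were much alike and the 3 bortezomib libraries were not: between pairs of libraries of 1 group, the chi-square per degree of freedom over genes was 2.19 to 3.08 with PBS and 14.9 to 26.0 with bortezomib. One axis of that spread was the GC content of the genes. Across genes, the deviation of a library from the mean of all libraries correlated with GC content at -0.35 to -0.29 in the PBS libraries, and at 0.51, -0.31 and 0.08 in bortezomib libraries 1, 2 and 3. Values without bortezomib library 1, and after a correction for GC content and length, are therefore given beside the main groups of genes. Bortezomib and combination libraries of the same number deviated together from their group means for numbers 1 and 2 (r = 0.66 and 0.52 across genes). For number 3 r was 0.12, within the range of the pairs of unlike number (-0.59 to 0.22). The 2 comparisons share no library but are thus not free of a shared library pattern.

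No gene passed in bortezomib against PBS. Of 13085 genes tested, 0 (0.0%) had an adjusted p under 0.05 in edgeR's quasi-likelihood test, and 1388 (10.6%) had an unadjusted p under 0.05, 885 higher (6.76%) and 503 lower (3.84%) with bortezomib. DESeq2 called 9 genes (5 higher and 4 lower). limma voom with library quality weights called 741 (5.66%), 445 higher (3.4%) and 296 lower (2.26%), with bortezomib library 3 weighted at 3.03 and libraries 1 and 2 at 0.39 and 0.56. The groups did not overlap, meaning that all 3 libraries of one lay above all 3 of the other, in 1380 genes higher (10.5%) and 1258 lower (9.61%), together 20.2% of all genes. The median log2 change over all genes was 0.02, with 6884 genes above 0 (52.6%), and the median size of change among the 1388 genes was 0.40 on the log2 scale. All levels below are counts scaled to library size (CPM, with TMM factors), given for libraries 1, 2 and 3 in that order, and all changes are log2 values of bortezomib minus PBS with their standard error (3 libraries a group). Since no gene passed, they are given as values. Fewer cells of a type and less RNA per cell cannot be told apart in such bulk libraries.

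**Figure D1:**
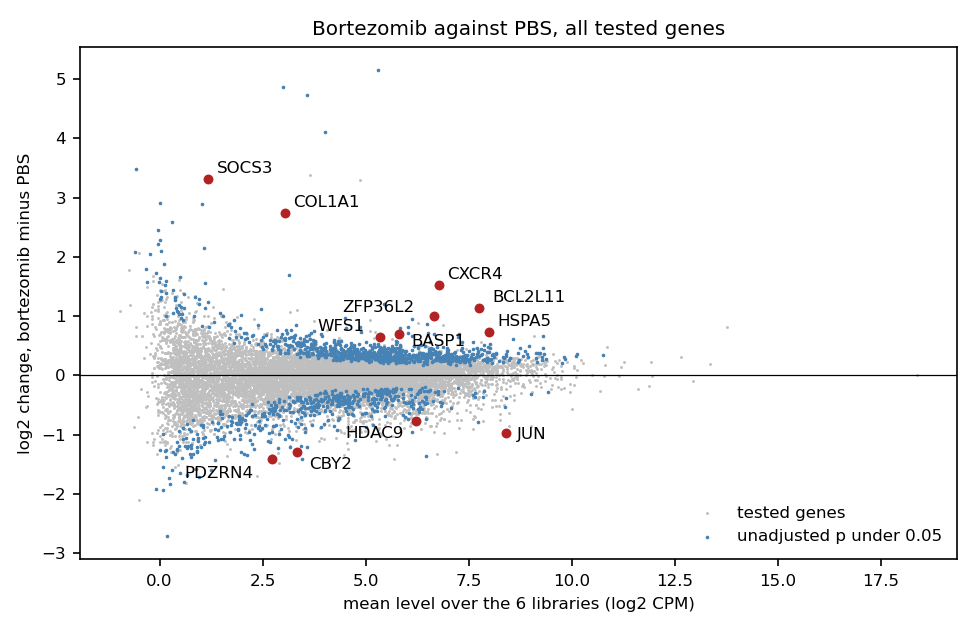
Change against level for the 13085 tested genes. The horizontal axis is the mean level over the 6 libraries in log2 CPM, the vertical axis the log2 change of bortezomib minus PBS, blue points have an unadjusted p under 0.05, and 12 genes described in the text are marked in red, among them CXCR4 at 1.52 and PDZRN4 at -1.41.

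Among genes of at least 3 log2 CPM, the 12 higher genes with the smallest p had changes of 0.39 to 1.52 and the groups overlapped in none of them. CXCR4, the receptor that holds plasma cells in the marrow through CXCL12, was at 89.8, 58.2 and 53.7 CPM with PBS and 125, 199 and 254 CPM with bortezomib. Its change was 1.52 ± 0.32, with an edgeR adjusted p of 0.419, and library 3 of bortezomib was highest. ZFP36L2, an RNA-binding protein that promotes mRNA decay, was at 80.6, 71.2 and 66.5 CPM with PBS and 104, 141 and 191 CPM with bortezomib (1.00 ± 0.22). All 3 drug libraries again lay above the controls, with library 3 highest. BASP1, a membrane-bound signalling and corepressor protein, was at 45.8, 43.9 and 41.7 CPM with PBS and 60.2, 73.1 and 80.6 CPM with bortezomib (0.70 ± 0.14). WFS1, an ER membrane protein induced by the unfolded protein response, was at 31.6, 30.2 and 35.7 CPM with PBS and 52.7, 52.3 and 47.2 CPM with bortezomib (0.64 ± 0.14), and its 3 drug libraries lay close together. RPTOR, the scaffold subunit of the growth kinase complex mTORC1, had a change of 0.49 ± 0.12, ETV6, a transcription repressor of the ETS family, 0.48 ± 0.11, and the nucleolar helicase DHX37 0.57 ± 0.12. The other 5 were UBALD1, CAPN15, NXPE3, YJU2 and GGA3, at 0.39 to 0.63. By edgeR all 12 had the same adjusted p of 0.419, and by limma voom all 12 had an adjusted p of 0.00331 to 0.0171. The 12 were picked by p in these same libraries, so neither the lack of overlap nor the voom values are separate support.

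The 12 lower genes with the smallest p had changes of -1.41 to -0.52. In them too the groups did not overlap, again after a choice by p in these libraries. PDZRN4, a PDZ domain protein with a RING finger, had the smallest p of all: it was at 10.6, 9.14 and 11.3 CPM with PBS and 3.68, 3.96 and 3.97 CPM with bortezomib. Its change was -1.41 ± 0.23 with an edgeR adjusted p of 0.193, and both groups were tight. HDAC9, a class IIa histone deacetylase that binds MEF2 factors, was at 114, 85.3 and 98.7 CPM with PBS and 70.5, 58.4 and 44.6 CPM with bortezomib (-0.78 ± 0.16), with every drug library below every control. CBY2 had a change of -1.29 ± 0.27, and AKAP6, a scaffold that anchors protein kinase A, -0.91 ± 0.20. SESN3, a sestrin that FOXO factors induce and that restrains mTORC1, was at 10.8, 10.1 and 14.4 CPM with PBS and 4.37, 6.25 and 6.23 CPM with bortezomib (-1.08 ± 0.27). RTKN2 had a change of -1.08 ± 0.26, and RBFOX2, a splicing regulator, -0.63 ± 0.16. The other 5 were HSPBAP1, AFDN, HCFC2, GAS2 and SNAPC3, at -0.67 to -0.52. After the correction for GC content and length, all 24 genes kept their sign, but 6 of the 12 lower ones were smaller by over 1.5 times (HDAC9 at -0.33, AKAP6 at -0.37, RTKN2 at -0.65, SESN3 at -0.61, HCFC2 at -0.31 and SNAPC3 at -0.34). Of the higher ones CAPN15 was smaller (0.19 from 0.39 ± 0.08) and NXPE3 larger (0.62 from 0.41 ± 0.09).

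The unfolded protein response list was one-sided. Of 26 members, all tested, 24 lay above 0, 13 were higher and 0 lower at an unadjusted p under 0.05 (6.76% of all genes were higher), and 16 had drug libraries that all lay above the controls (10.5% of all genes). The median change was 0.24, beside 0.02 over all genes. Its median level relative to the PBS mean was 0.27, 0.20 and 0.23 log2 units in bortezomib libraries 1, 2 and 3. The median was 0.21 without bortezomib library 1 and 0.21 after the GC and length correction. ERN1, the sensor IRE1, was at 373, 349.8 and 373 CPM with PBS and 392, 588 and 533 CPM with bortezomib (0.47 ± 0.13), with library 1 the lowest of the 3 and still above the controls. EIF2AK3 had a change of 0.03 ± 0.11, and XBP1, whose unspliced and spliced forms a gene count does not separate, 0.13 ± 0.10. HSPA5, the main ER chaperone BiP, was at 191, 212 and 207 CPM with PBS and 258, 259 and 497 CPM with bortezomib (0.73 ± 0.29). Libraries 1 and 2 were alike and library 3 lay far above them, so the error is wide, but no drug library overlapped the controls.

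The protein-folding members were more even. P4HB, a protein disulfide isomerase, was at 1000.3, 973 and 983 CPM with PBS and 1391, 1098 and 1237 CPM with bortezomib (0.33 ± 0.12). Its relatives PDIA3 and PDIA4 had changes of 0.32 ± 0.13 and 0.28 ± 0.12, and the calcium-binding chaperone CALR was at 826, 869 and 810.2 CPM with PBS and 1069, 946 and 1028 CPM with bortezomib (0.28 ± 0.11). SDF2L1, a cofactor of BiP, was at 35.2, 32.5 and 28.4 CPM with PBS and 43.7, 40.8 and 41.7 CPM with bortezomib (0.40 ± 0.17). MANF and CRELD2, small secreted ER stress proteins, had changes of 0.30 ± 0.12 and 0.30 ± 0.11. In all of these the groups did not overlap. HSP90B1, the ER paralog of HSP90, was at 1487, 1451 and 1399 CPM with PBS and 1167, 1619.7 and 1567 CPM with bortezomib (0.01 ± 0.18), and its promoter also holds the element. It was lower in library 1 than in every control and higher in libraries 2 and 3 than in every control. ERO1B, an oxidase that forms disulfide bonds, whose promoter holds the element too, was the lowest member at -0.18 ± 0.23, and at 0.10 after the GC and length correction.

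ER-associated degradation, the export of misfolded proteins to the proteasome, was shifted less. Of 22 members 19 lay above 0, with a median of 0.15 (0.11 without library 1, 0.15 after the GC and length correction). At an unadjusted p under 0.05, 6 members were higher, beside 6.76% of all genes. SYVN1, the ubiquitin ligase HRD1 at the centre of this pathway, was at 84.2, 79.9 and 80.3 CPM with PBS and 118, 111 and 105 CPM with bortezomib (0.45 ± 0.12). All drug libraries lay above all controls. HERPUD1, which assembles the HRD1 complex, was at 358, 334 and 252 CPM with PBS and 352, 597 and 489 CPM with bortezomib (0.61 ± 0.21), and its library 1 lay among the controls. EDEM1, a mannosidase-like protein that marks glycoproteins for export, was at 436, 445 and 445 CPM with PBS and 510.1, 547 and 579 CPM with bortezomib (0.30 ± 0.09). SEL1L, the partner of HRD1, had a change of -0.14 ± 0.13 (0.19 after the correction), and the groups of EDEM3 overlapped (-0.28 ± 0.33).

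**Figure D2:**
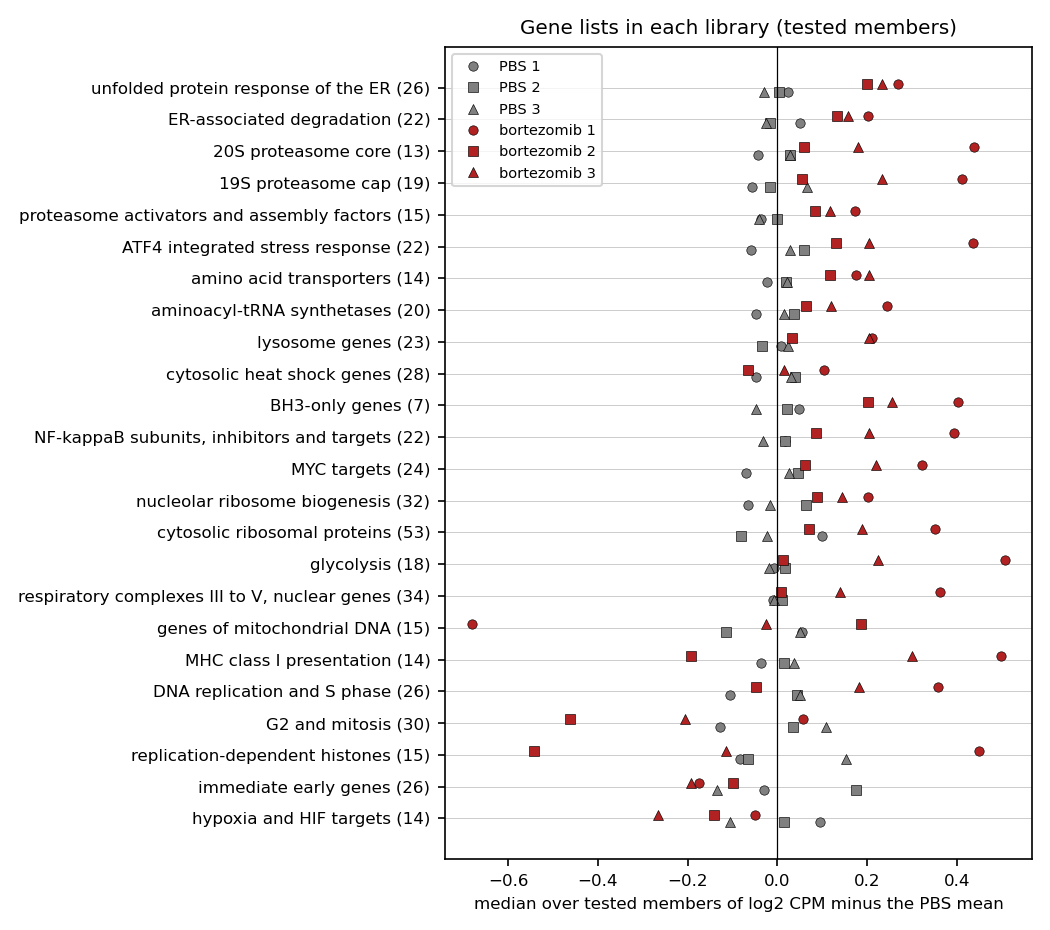
Gene lists by library. Each point is the median, over the tested members of a list (number in brackets), of the level in 1 library minus the PBS mean in log2 CPM, for 3 PBS libraries in grey and 3 bortezomib libraries in red. The unfolded protein response points of the drug sit together at 0.20 to 0.27, while those of the proteasome core spread from 0.06 to 0.44.

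The proteasome core and cap lay above 0 by about as much in the median, but less evenly over the libraries. Of 13 tested genes of the 20S core, 9 lay above 0, with a median of 0.25. In this list 3 were higher at an unadjusted p under 0.05, beside 6.76% of all genes. The core was at 0.44, 0.06 and 0.18 log2 units above the PBS mean in libraries 1, 2 and 3, the same order as their correlation with GC content. The part of GC content in this order was not tested. The median was 0.11 without library 1, with 10 members above 0. It was 0.17 after the GC and length correction, with all 13 above 0. PSMB5, the target of the drug, was at 26.9, 21.5 and 18.7 CPM with PBS and 30.0, 23.2 and 25.7 CPM with bortezomib (0.25 ± 0.19), and the groups overlapped. PSMB2, a structural subunit of the same ring, was at 75.4, 86.7 and 83.1 CPM with PBS and 115, 88.7 and 136 CPM with bortezomib (0.47 ± 0.16), with library 2 close to the controls. PSMB1 had a change of 0.25 ± 0.14 and PSMB4 0.36 ± 0.14. The 19S cap, which binds and unfolds tagged proteins, had 16 of 19 members above 0 and a median of 0.24. Without library 1 the values were 17 and 0.14, and after the correction 18 and 0.22. In the main fit 4 members of the cap were higher at an unadjusted p under 0.05, beside 6.76% of all genes. ADRM1, a ubiquitin receptor of the cap, was at 77.0, 81.2 and 84.3 CPM with PBS and 124, 92.5 and 107 CPM with bortezomib (0.41 ± 0.12). Of 15 proteasome activators and assembly factors 14 lay above 0, with a smaller median of 0.12, and the 3 immunoproteasome subunits had a median of 0.15 (0.06 after the correction).

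Of the genes that act on NRF1 and of p97, the motor that pulls proteins from the ER membrane, 7 of 13 lay above 0, with a median of 0.02 (0.10 without library 1, 0.12 after the GC and length correction). NFE2L1 itself was at 117, 131 and 142 CPM with PBS and 169.9, 138 and 169 CPM with bortezomib (0.29 ± 0.12), and library 2 lay among the controls. NPLOC4, a cofactor of p97, had a change of 0.32 ± 0.11. Of 13 ubiquitin and E1 genes 9 lay above 0, led by the activating enzyme UBA1 (0.30 ± 0.12). None of 17 deubiquitinases had an unadjusted p under 0.05, beside 10.6% of all genes, and 7 lay above 0.

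The cytosolic heat shock genes were split. Of 28 tested members 13 lay above 0, and the median was close to 0. HSPA1B, an inducible HSP70, was lower, at 105, 150.4 and 177 CPM with PBS and 76.7, 49.1 and 42.9 CPM with bortezomib (-1.35 ± 0.57). Its near-identical copy HSPA1A was counted at only 0.903, 2.13 and 2.42 CPM with PBS and 0.690, 0.762 and 0.378 CPM with bortezomib, so how reads were divided between them is uncertain. CHORDC1, an HSP90 co-chaperone, was also lower at 39.5, 47.1 and 45.5 CPM with PBS and 16.7, 32.6 and 23.2 CPM with bortezomib (-0.87 ± 0.28), more so in library 1. The regulator HSF1 was at 60.0, 60.2 and 63.5 CPM with PBS and 100.0, 66.6 and 91.2 CPM with bortezomib (0.49 ± 0.15). BAG3, an HSP70 cofactor that feeds aggregates to autophagy, was at 5.42, 8.23 and 6.75 CPM with PBS and 13.5, 9.90 and 11.5 CPM with bortezomib (0.76 ± 0.24), and BAG6, which guards misplaced membrane proteins, had a change of 0.44 ± 0.12. In these 3 genes all drug libraries lay above the controls. Over the 28 members the groups did not overlap in 3 higher and 3 lower ones, close to the shares of 10.5% and 9.61% over all genes.

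ATF4 and the genes it drives when amino acids or folding capacity run short lay mostly above 0. Of 22 members 16 did, with a median of 0.26 (0.15 without library 1, 0.15 after the GC and length correction). Only 2 were higher at an unadjusted p under 0.05, beside 6.76% of all genes. They were the translation brake EIF4EBP1 (0.45 ± 0.15) and the serine synthesis enzyme PHGDH (0.58 ± 0.25). ATF4 was at 98.2, 105 and 92.8 CPM with PBS and 131, 108 and 113 CPM with bortezomib (0.25 ± 0.13). The death-linked factor DDIT3, or CHOP, was at 5.64, 6.10 and 6.23 CPM with PBS and 6.56, 6.55 and 6.04 CPM with bortezomib (0.09 ± 0.21), and ATF3 was lower in every drug library at -0.55 ± 0.35. Of 14 amino acid transporters 4 were higher at an unadjusted p under 0.05, beside 6.76% of all genes. Among them were both chains of the leucine transporter. SLC7A5, its transport chain, was at 44.0, 47.7 and 56.4 CPM with PBS and 104, 67.5 and 90.1 CPM with bortezomib (0.82 ± 0.20). SLC3A2, its partner, was at 85.3, 88.2 and 81.7 CPM with PBS and 126, 112 and 108 CPM with bortezomib (0.44 ± 0.14), and neither overlapped the controls. Of 20 aminoacyl-tRNA synthetases 18 lay above 0, with a median of 0.13.

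Autophagy and the lysosome, the other route of protein breakdown, held a few high members. SQSTM1, the receptor p62 that carries ubiquitinated cargo, was at 130.5, 139 and 128 CPM with PBS and 220.4, 161 and 208 CPM with bortezomib (0.57 ± 0.15). All drug libraries lay above the controls, with library 2 closest. MAP1LC3B, which coats autophagosomes, had a change of 0.44 ± 0.16. Over the lists, 16 of 24 autophagy genes (median 0.09) and 19 of 23 lysosome genes (median 0.15) lay above 0. Without library 1 these medians were 0.03 and 0.10, and after the GC and length correction 0.05 and 0.09. The lysosomal list had the protease CTSD at 0.36 ± 0.14. Of 22 genes of the NRF2 antioxidant response 17 lay above 0. The factor NFE2L2 itself was at -0.24 ± 0.10, and HMOX1, at few CPM, was at 0.59 ± 0.55. None of 8 metallothionein genes passed the filter on low counts.

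**Figure D3:**
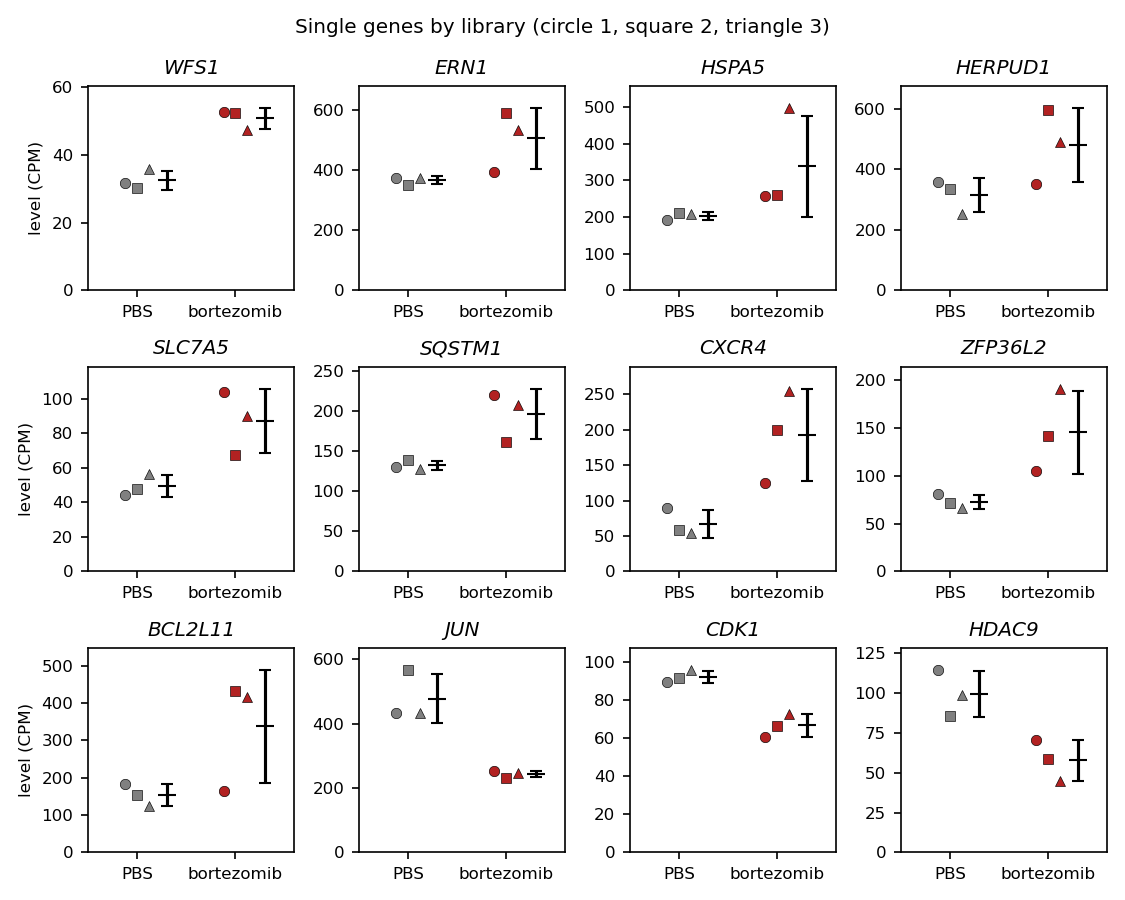
Levels of 12 genes by library. Each panel gives CPM in PBS (grey) and bortezomib (red) libraries on a linear axis from 0, with the mean and SD of 3 libraries beside them. In ERN1, WFS1 and CXCR4 every drug library lies above every control, in BCL2L11 library 1 lies among the controls, and in JUN, CDK1 and HDAC9 every drug library lies below.

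Among genes of cell death the BH3-only list, whose proteins bind and block survival proteins, held the members with the larger values. Of 7 tested members 5 lay above 0 and 3 were higher at an unadjusted p under 0.05, beside 6.76% of all genes. BCL2L11, which encodes BIM, was at 183, 154 and 124 CPM with PBS and 164, 433 and 417 CPM with bortezomib (1.14 ± 0.30, edgeR adjusted p 0.419). Libraries 2 and 3 lay far above the controls and library 1 lay among them. Without library 1 its change was 1.47 and it passed in edgeR, with an adjusted p of 0.00950. BMF was at 10.8, 7.16 and 10.7 CPM with PBS and 14.0, 14.0 and 17.9 CPM with bortezomib (0.68 ± 0.23), above the controls in all 3 libraries. BID, which links death receptors to mitochondria, was at 31.6, 31.2 and 28.9 CPM with PBS and 41.9, 35.2 and 37.4 CPM with bortezomib (0.32 ± 0.11). BAD had a change of 0.26 ± 0.13 and HRK, near 1 CPM, 0.32 ± 0.52. PMAIP1, the NOXA gene, was at 10.2, 11 and 10.0 CPM with PBS and 7.13, 9.60 and 10.4 CPM with bortezomib (-0.22 ± 0.22), and the p53 target BBC3, or PUMA, at -0.08 ± 0.28. Among the survival genes MCL1 was at 954, 1029 and 924 CPM with PBS and 833, 909 and 756 CPM with bortezomib (-0.22 ± 0.14), just below the controls, and BCL2 and BCL2L1 were at -0.03 ± 0.13 and 0.05 ± 0.13. None of 9 survival and effector genes and none of 19 caspase, apoptosome and inhibitor genes had an unadjusted p under 0.05. The share over all genes was 10.6%. Of 20 p53 genes 14 lay above 0, with TP53INP1 at 0.40 ± 0.13 and SESN1, a sestrin, at -0.44 ± 0.16.

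NF-kappaB, which the proteasome releases from its inhibitor, had 15 of 22 genes above 0. The median was 0.27 (0.16 without library 1, 0.16 after the GC and length correction). At an unadjusted p under 0.05, 6 genes were higher and 1 lower, beside 6.76% and 3.84% of all genes. NFKB2, the precursor of the alternative pathway, was at 89.8, 73.0 and 78.1 CPM with PBS and 115, 109 and 103 CPM with bortezomib (0.44 ± 0.16). The inhibitor and target NFKBIA was at 47.4, 45.3 and 43.3 CPM with PBS and 71.2, 59.0 and 51.7 CPM with bortezomib (0.42 ± 0.13). The adhesion molecule ICAM1 was at 44.2, 46.6 and 42.2 CPM with PBS and 111, 52.7 and 67.6 CPM with bortezomib (0.80 ± 0.35), with library 1 far above the controls and library 2 just above them. NFKBIZ, a nuclear regulator of the family, lay below the controls at -0.68 ± 0.21.

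Genes of the immediate early response, transcription factors and regulators that cells turn on first after a stimulus, leaned the other way. Of 26 tested members 18 lay below 0, the median was -0.16 and the groups did not overlap in 7 lower members, beside 9.61% of all genes, and in 2 higher ones, beside 10.5%. The median was -0.24 after the GC and length correction. JUN, a subunit of AP-1, was at 433, 567 and 434 CPM with PBS and 251, 233 and 246 CPM with bortezomib (-0.97 ± 0.42). The 3 drug libraries were close together, and every one was below every control. IER2 was at 17.2, 22.4 and 23.4 CPM with PBS and 15.1, 9.14 and 11.3 CPM with bortezomib (-0.82 ± 0.25) and EGR3 at 1.81, 4.72 and 1.73 CPM with PBS and 1.5, 1.22 and 0.567 CPM with bortezomib (-1.30 ± 0.52). FOS, the partner of JUN, was at 209.7, 256 and 172 CPM with PBS and 125, 176 and 127 CPM with bortezomib (-0.58 ± 0.72) and overlapped, and EGR1 had a change of -0.90 ± 0.57. Of the 8 members above 0, KLF10 and FOSL2 had an unadjusted p under 0.05, at 0.37 ± 0.15 and 0.56 ± 0.22.

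The output and feedback genes of RAS-ERK signalling, active in this cell line through a mutant RAS gene, were mixed. Of 19 members 16 lay above 0. At an unadjusted p under 0.05, 5 were higher and 2 lower, beside 6.76% and 3.84% of all genes. ETV5, an ETS factor that ERK induces, was at 25.1, 18.1 and 22.8 CPM with PBS and 47.9, 37.2 and 30.2 CPM with bortezomib (0.82 ± 0.21). DUSP5, a nuclear ERK phosphatase, was at 256, 202 and 158 CPM with PBS and 257, 371 and 393 CPM with bortezomib (0.73 ± 0.23), only just above the controls in library 1. DUSP2 and PHLDA1 lay below the controls in all 3 libraries at -0.76 ± 0.23 and -0.54 ± 0.16. SOCS3, the feedback inhibitor of STAT3 signalling, had few reads with PBS, on which its fitted change depends, and was at 0.226, 1.22 and 0.519 CPM with PBS and 8.74, 2.29 and 10.6 CPM with bortezomib (3.32 ± 0.90). The 3 drug libraries differed widely among themselves, and the groups did not overlap. The kinase PIM1, another STAT3 target, had a change of 0.39 ± 0.14. These were the only 2 of 14 tested JAK-STAT3 and PIM genes higher at an unadjusted p under 0.05, beside 6.76% of all genes. That list had 11 members above 0 and a median of 0.06. Its groups did not overlap in 1 higher and 2 lower members, beside 10.5% and 9.61% of all genes. Among FOXO genes, IRS2 and FBXO32 were at 0.64 ± 0.28 and 0.61 ± 0.25, against SESN3 and SESN1 below 0.

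Genes of growth leaned above 0, mostly in libraries 1 and 3. Of 24 MYC targets 20 did, with a median of 0.22 (0.15 without library 1, 0.15 after the GC and length correction). At an unadjusted p under 0.05, 6 MYC targets were higher and 0 lower, beside 6.76% and 3.84% of all genes. MYC itself was at 523, 456 and 479 CPM with PBS and 639, 451 and 530.1 CPM with bortezomib (0.15 ± 0.13). SRM, which makes spermidine, was at 68.9, 82.0 and 85.3 CPM with PBS and 118, 94.6 and 135 CPM with bortezomib (0.56 ± 0.15). The cytosolic ribosomal protein genes had 50 of 53 above 0 (median 0.19, 0.14 after the correction), and the nucleolar genes of ribosome assembly 25 of 32 (median 0.15, 0.14 after it). Glycolysis had 17 of 18 above 0 with a median of 0.28, and lay at 0.51, 0.01 and 0.22 log2 units above the PBS mean in libraries 1, 2 and 3, the same order as their correlation with GC content. The part of GC content in this order was not tested. The median of the glycolysis list was 0.15 without library 1 and 0.20 after the correction. PKM, its last enzyme, was at 421, 435 and 425 CPM with PBS and 754, 434 and 625 CPM with bortezomib (0.50 ± 0.19). The nuclear genes of respiratory complexes III to V had 33 of 34 above 0 (median 0.18), at 0.36, 0.01 and 0.14 in libraries 1, 2 and 3, and without library 1 the median was 0.06 with 27 above 0. The genes of mitochondrial DNA had 3 of 15 above 0, or 11 without library 1, and were at -0.68, 0.19 and -0.02 in libraries 1, 2 and 3.

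Replication and mitosis genes differed in the sign of their medians. Of 26 DNA replication genes 25 lay above 0 (median 0.16), and of 30 genes of G2 and mitosis 26 lay below 0 (median -0.17). Of these 30, 3 were lower at an unadjusted p under 0.05, beside 3.84% of all genes. The replication list was at 0.36, -0.05 and 0.18 log2 units relative to the PBS mean in libraries 1, 2 and 3, and without library 1 its median was 0.06 with 18 members above 0. The mitotic list was at 0.06, -0.46 and -0.21 log2 units relative to the PBS mean in libraries 1, 2 and 3, so library 1 did not share the shift. Its median was -0.33 without library 1, with 0 members above 0, and -0.15 after the GC and length correction. CDK1, the kinase that starts mitosis, was at 89.6, 91.4 and 95.9 CPM with PBS and 60.9, 66.6 and 72.9 CPM with bortezomib (-0.47 ± 0.14). Here library 1 was the lowest of all. ANLN, a scaffold of the cleavage furrow, was at 74.7, 83.4 and 87.8 CPM with PBS and 47.6, 56.4 and 54.4 CPM with bortezomib (-0.64 ± 0.24), and KIF23, a motor of the midbody, at 49.4, 58.2 and 59.2 CPM with PBS and 47.2, 37.9 and 41.9 CPM with bortezomib (-0.39 ± 0.16). TOP2A, which untangles chromosomes, had a change of -0.52 ± 0.26. The replication-dependent histone genes, whose mRNAs lack a poly(A) tail, ranged from -0.54 in library 2 to 0.45 in library 1.

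Plasma cell markers overlapped between the groups in their sum. All 13 MM.1S and plasma cell markers were tested and none was at 0 in any library. Their summed level was 15510 to 16103 CPM with PBS and 15313 to 16001 CPM with bortezomib. IRF4, on which myeloma cells depend, was at 818, 888 and 894 CPM with PBS and 859.8, 664 and 744 CPM with bortezomib (-0.20 ± 0.11), and TNFRSF17, the antigen BCMA, was at 245, 248 and 239.6 CPM with PBS and 274, 216 and 219 CPM with bortezomib (-0.05 ± 0.11). The syndecan SDC1 and the antigen CD38 had changes of 0.09 ± 0.14 and 0.20 ± 0.13. CRBN, the target of lenalidomide, lay just below the controls at -0.37 ± 0.17, and at -0.02 after the GC and length correction. Of 18 transcription factors 12 lay above 0, with BACH2, a repressor of plasma cell fate, at -0.43 ± 0.15. Of 14 homing and adhesion receptors 8 lay above 0. The groups did not overlap in 4 higher and 2 lower members, beside 10.5% and 9.61% of all genes. At an unadjusted p under 0.05, 5 receptors were higher, beside 6.76% of all genes. Beside CXCR4 these were SELPLG, the ligand of P-selectin, at 325, 278 and 288 CPM with PBS and 421, 382 and 388 CPM with bortezomib (0.42 ± 0.12), the chemokine receptors CCR10 (0.50 ± 0.18) and CCR2 (0.53 ± 0.19), and CD44 (0.27 ± 0.10). The genes of MHC class I presentation had 13 of 14 above 0 but stood at 0.50, -0.19 and 0.30 in libraries 1, 2 and 3. Interferon-stimulated genes had 12 of 23 above 0. Of 14 hypoxia genes 10 lay below 0, with a median of -0.19 that was 0.00 after the correction. ADM, the vessel peptide adrenomedullin, was at 266, 289 and 306 CPM with PBS and 248, 127 and 126 CPM with bortezomib (-0.78 ± 0.24). Libraries 2 and 3 lay far below the controls and library 1 just below them. SLC31A1, the copper importer, was at 42.9, 40.8 and 43.4 CPM with PBS and 61.1, 49.5 and 52.3 CPM with bortezomib (0.36 ± 0.13), above the controls in all 3 libraries.

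Counts were made on the human GRCh37 build, while the host cells of the marrow are mouse. The marker values below are therefore no measure of the number of host cells. Markers of other marrow cells were scarce, and some were higher with the drug. The mean level of 32 of them was 1.59 to 1.74 log2 CPM with PBS and 1.87 to 2.11 log2 CPM with bortezomib, with no overlap. The erythroid markers summed to 52.1 to 74.3 CPM with PBS and 67.5 to 78.9 CPM with bortezomib, and the macrophage and osteoclast markers to 23.0 to 36.3 and 28.3 to 33.6 CPM. The granulocyte markers summed to 17.5 to 31.5 CPM with PBS and 11.6 to 35.3 CPM with bortezomib, the endothelial markers to 1.2 to 2.9 and 2.1 to 3.8 CPM, and the stromal and bone markers to 106 to 136 and 128 to 161 CPM. Of the 11 tested stromal genes 7 lay above 0 and 4 below 0, the lowest at -0.44. At an unadjusted p under 0.05, 3 collagens were higher, beside 6.76% of all genes. COL1A1, the main collagen of bone, was at 3.84, 2.13 and 3.98 CPM with PBS and 17.3, 11.4 and 37.8 CPM with bortezomib (2.74 ± 0.82). COL1A2 was at 4.06, 2.29 and 9.52 CPM with PBS and 15, 10.2 and 26.8 CPM with bortezomib (1.69 ± 0.65), and COL5A1 at 2.29 ± 0.78. All drug libraries lay above the controls, and library 3 was highest for COL1A1. Of the 4 tested erythroid markers 3 lay above 0, with a list median of 0.29. The groups did not overlap in 2 of these 3, beside 10.5% of all genes. None of the 3 had an unadjusted p under 0.05. HEMGN, an erythroid nuclear protein, was the only erythroid marker below 0, at -1.13 ± 0.43. It had an unadjusted p under 0.05 and its groups did not overlap, beside 3.84% and 9.61% of all genes lower. CXCR4, SOCS3 and several NF-kappaB genes are also expressed by marrow cells, and the part of host cells in their values was not tested.

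Adding bortezomib to elesclomol gave some of these values and not others. In combination against elesclomol 0 of 13085 genes (0.0%) passed in edgeR and 1597 (12.2%) had an unadjusted p under 0.05. The 2 comparisons had the same sign in 59.4% of all genes and in 61.2% of the 1388 genes, and the correlation of mean log2 CPM differences across genes was 0.18, or -0.06 without bortezomib library 1 and combination library 1. Of the 12 higher genes 5 had the same sign with elesclomol and of the 12 lower ones 7. CXCR4 was at -0.41 ± 0.31 there, WFS1 at 0.23 ± 0.13 and SESN3 at -0.83 ± 0.27. The unfolded protein response list leaned the same way: 21 of 26 members lay above 0, beside 48.9% of all genes, with a median of 0.15. However, the groups did not overlap in 1 higher and 2 lower members, beside 8.57% and 7.47% of all genes. SDF2L1 was at 0.45 ± 0.16, PDIA3 at 0.38 ± 0.13 and HSPA5 at -0.18 ± 0.29. The median was -0.28 for the homing receptors and -0.13 for the BH3-only genes, both below 0.

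The difference between the 2 comparisons was itself tested as an interaction, in which 1 gene of 13085 (0.00764%) passed in edgeR and 1150 (8.79%) had an unadjusted p under 0.05. This was HDAC9. Its level was 114, 85.3 and 98.7 CPM with PBS and 70.5, 58.4 and 44.6 CPM with bortezomib, and 44.0, 46.5 and 40.3 CPM with elesclomol and 86.9, 92.6 and 71.8 CPM with the combination. The libraries of each drug alone lay below those of PBS, while those of the combination overlapped PBS. The interaction was 1.72 ± 0.23 with an edgeR adjusted p of 0.0229. It did not pass after the GC and length correction (1.61, adjusted p 0.314), after it together with the replicate block (1.61, adjusted p 0.259) or when the level of host markers was added to the model (1.58, adjusted p 0.151), and a change of at least 1.5-fold was not called (adjusted p 0.235). Without PBS library 1 or 3, bortezomib library 2 or 3, any 1 elesclomol library or combination library 2, the adjusted p was 0.0507 to 0.108, and without any other 1 of the 12 libraries it passed. BCL2L11 had a like pattern in the other direction, at 432, 404 and 349.5 CPM with elesclomol and 192, 138 and 206 CPM with the combination. With either drug alone, 5 of 6 libraries lay above every PBS library, and the combination overlapped PBS. Its interaction was -2.29 ± 0.42, with an edgeR adjusted p of 0.107, and passed without bortezomib library 1 (-2.62, adjusted p 0.000307). BCL2L11 and the following 3 genes were singled out after their values were seen. PDZRN4 (2.06 ± 0.32), the phosphatase DUSP2 (2.11 ± 0.34) and SOCS3 (-6.88 ± 1.20) had edgeR adjusted p of 0.0631, 0.0655 and 0.0729. After the GC and length correction PDZRN4 and DUSP2 passed (adjusted p 0.0404 and 0.0119), and with the block as well DUSP2 did (adjusted p 0.0117).

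**Figure D4:**
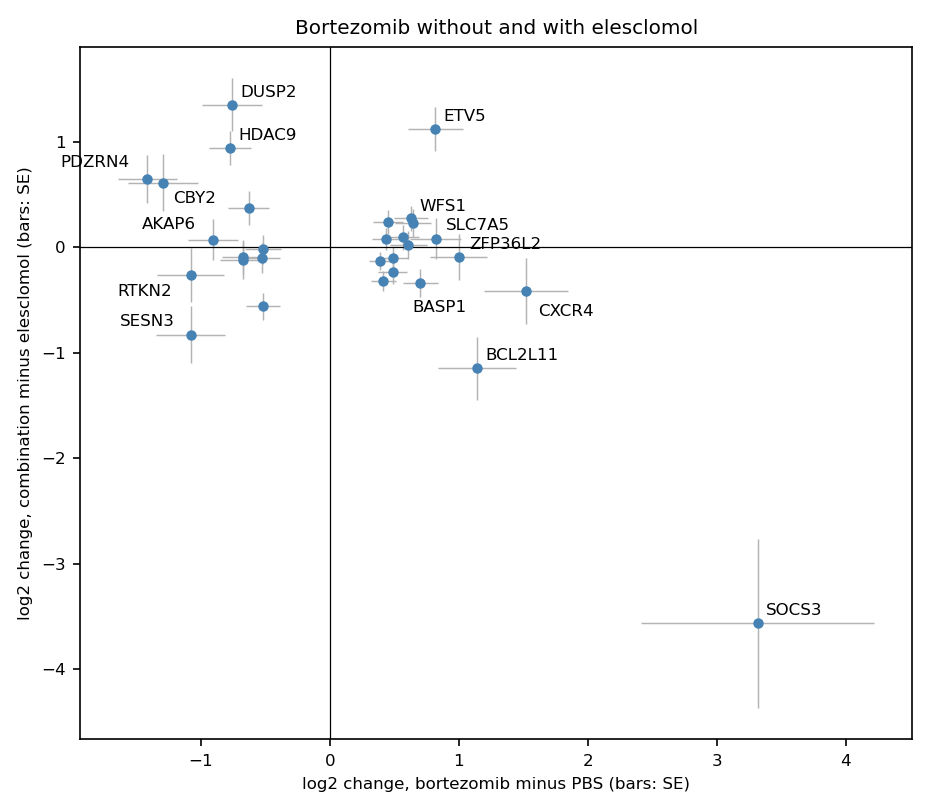
Bortezomib without and with elesclomol for the 12 higher, the 12 lower and 6 further genes. The horizontal axis is the log2 change of bortezomib minus PBS, the vertical axis that of combination minus elesclomol, and bars are 1 SE. HDAC9 lies at -0.78 and 0.94 and BCL2L11 at 1.14 and -1.15, in the quadrants of opposite sign, while ETV5 and SESN3 have the same sign in both.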

How the data were processed

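Gene counts of 15 libraries of total RNA, 3 in each of 5 groups, were used as deposited. Per the submitters' processing notes, which list STAR 2.5.4b, featureCounts 1.6.1 and the GRCh37 build, the authors aligned reads and counted them per gene. Annotation release, strand setting and handling of mouse reads were not stated there or in the labels. Of 57773 genes 52338 had a name, and the 5435 without one held 1.07% of counts. The 15 libraries entered 1 edgeR 4.0.16 quasi-likelihood model (TMM scaling, filterByExpr with a minimum count of 10, R 4.3.3), which left 13085 genes and a common coefficient of variation of 0.171. P-values are two-sided and adjusted by Benjamini-Hochberg over all genes tested, with a threshold of 0.05. Counts of genes at an unadjusted p under 0.05 are descriptions.

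DESeq2 1.42.0, limma 3.58.1 (voom with quality weights), other scalings, filters and sample sets, the replicate number as a block, host marker level as a covariate and leaving out each PBS and bortezomib library were alternatives. The correction for GC content and length (a loess trend with span 0.3, 12794 genes), alone and with the block, and the fit without the 3 libraries richest in GC (bortezomib 1, combination 1 and delayed combination 2), and for the interaction leaving out each elesclomol and combination library, were chosen after seeing the data.

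The members and the 61 gene lists were chosen with earlier results of these data known, and 1101 of the 1118 list genes matched a named gene. The genes named are the 12 higher and 12 lower with the smallest p among genes whose group mean reached 3 log2 CPM in at least 1 of the 2 groups, up to 4 tested members of each list with the smallest p, a fixed set of proteasome, stress, death and myeloma genes, and those that passed the interaction. BCL2, BCL2L1, CD44, DUSP5, EDEM3, EIF2AK3, ERO1B, HOPX, HSP90B1, HSPA1B, HSPA5, IL10, MANF, MT-RNR1, PDIA4, RNA5-8SP6, SDC1, SDF2L1 and SEL1L were named after their values were seen. Promoter sequence is from RefSeq (GRCh38.p14), a later build than that of the counts, so no gene coordinates of the counts are given. The fit was also run on simulated counts with known changes. A first criterion, on the number of changed genes recovered, was not met and was replaced after this was seen. The simulated counts had no GC trend and the same spread in all libraries of a gene. They therefore do not cover the spread between the bortezomib libraries.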

Additional observations from a re-analysis of the deposited data

Results flagged for a closer look

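HDAC9 had a different change with bortezomib in the 2 settings, by a test of the difference itself. Bortezomib minus PBS was -0.78 ± 0.16 and combination minus elesclomol was 0.94 ± 0.16 (log2 change ± SE, 3 libraries a group), and the edgeR interaction had an adjusted p of 0.0229. With replicate number as a block the adjusted p was 0.0317, after the GC and length correction 0.314, with both 0.259, with host marker level in the model 0.151, and without the 3 libraries richest in GC 0.000536. The deviations of same-numbered bortezomib and combination libraries correlated across genes at 0.12 to 0.66, and those of unlike number at -0.59 to 0.22.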

How the results depend on the processing

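In bortezomib against PBS the number of genes that passed was 0 in edgeR, and also under 10 other settings that left out none of the 6 libraries, and 1388 genes had an unadjusted p under 0.05 in edgeR. It was 9 with DESeq2, 741 with limma voom and quality weights, 76 with no filter on low counts and 9 without the 3 libraries richest in GC. Leaving out 1 library at a time gave 0 to 3 genes, and the 3 came without bortezomib library 1 and included BCL2L11 and ADM. For the interaction 1 gene passed. It was 32 with DESeq2, 310 with voom, 127 with no filter, 5 with only the groups compared, 2 after the GC and length correction, 46 without the 3 libraries richest in GC, 0 with host marker level in the model and 0 for a change of at least 1.5-fold. Leaving out 1 of the 12 libraries of the 4 groups gave 0 to 27, the 27 without bortezomib library 1, and 0 to 2 for the elesclomol and combination libraries. It was 0 without PBS 1 or 3, bortezomib 2 or 3, elesclomol 1 or 2 or combination 2, and 2 without combination 1 or 3. The cause was not tested.

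The replicate block gave 0 genes for bortezomib against PBS, with all libraries and with only the groups compared, and 2 and 10 genes for the interaction, or 1 with the GC and length correction, which was DUSP2 and not HDAC9. Same-numbered PBS and bortezomib libraries did not deviate together (correlations -0.02, 0.00 and 0.02). The PBS libraries differed little among themselves, so these correlations cannot tell whether a number marks shared handling.

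Among the genes named, 10 changed sign under some setting, and 9 of them were within 0.2 of 0 (HRK was at 0.32). After the GC and length correction, without and with the block, BCL2 was at 0.038 and 0.043, BCL2L1 at -0.086 and -0.088, ERO1B at 0.10 and 0.10, SDC1 at -0.062 and -0.064, SEL1L at 0.19 and 0.17 and TNFRSF17 at 0.055 and 0.041. Without the 3 libraries richest in GC, BCL2 was at 0.0060, BCL2L1 at -0.070 and SDC1 at -0.030. With voom, BCL2L1 was at -0.019 and EIF2AK3 at -0.026, and EIF2AK3 was at -0.0069 with the block and only the groups compared. HSP90B1 was at -0.0069 with DESeq2 and -0.0069 with its size factors, at -0.011 with the stricter filter of 3 log2 CPM, at -0.0089 with the block, at -0.018 with only the groups compared and at -0.033 with both. When 1 library was left out, BBC3 ranged from -0.47 to 0.10, BCL2 from -0.11 to 0.043, BCL2L1 from -0.071 to 0.13, EIF2AK3 from -0.10 to 0.10, HRK from -0.051 to 0.77, HSP90B1 from -0.081 to 0.14, SDC1 from -0.033 to 0.22 and TNFRSF17 from -0.17 to 0.015. The 3 libraries a group and 4500326 to 8449749 counts limit what could be seen for genes of few CPM.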

Other observations

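IL10, an interleukin that signals through STAT3, and HOPX, a small homeodomain protein, were scarce genes that stood beside SOCS3. IL10 was at 1.13, 0.610 and 0.346 CPM with PBS and 5.06, 1.83 and 8.50 CPM with bortezomib, a log2 change of 2.90 ± 1.00. HOPX was at 0.451, 1.83 and 0.519 CPM with PBS and 2.07, 7.47 and 3.97 CPM with bortezomib, a log2 change of 2.15 ± 0.65. In both the groups did not overlap, and the order of the drug libraries differed: libraries 1 and 3 were high for IL10, as for SOCS3, and library 2 was high for HOPX. With elesclomol, IL10 was at 1.83, 2.80 and 4.63 CPM, and with the combination at 1.88, 0.301 and 0.847 CPM. Both genes were chosen after their values were seen, and their edgeR adjusted p in bortezomib against PBS was 0.449 and 0.419.

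Bortezomib library 3 stood apart in RNA of ribosomal origin. The 5.8S rRNA pseudogene RNA5-8SP6 was at 3.16, 3.96 and 7.44 CPM with PBS and 10.4, 6.40 and 382 CPM with bortezomib. The mitochondrial 12S rRNA gene MT-RNR1 was at 11135, 11517 and 11677 CPM with PBS and 10256, 12139.8 and 38398 CPM with bortezomib. In both, the other 5 libraries lay far below it. Of the elesclomol libraries, number 1 was as high, at 447 CPM for RNA5-8SP6 and 40204 CPM for MT-RNR1. The part of this in other values was not tested.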
